A study of Mus musculus with 16 samples.

Results

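Primary mouse lung fibroblasts lacking meflin were compared with wild type fibroblasts in the absence of added TGF-β1. Meflin is the product of Islr, a cell surface protein with leucine-rich repeats and an immunoglobulin-like domain that is anchored in the membrane by a lipid. The members were the samples labelled meflin knockout or wild type and vehicle, which gave 4 arrays of each genotype, 8 of the 16 arrays of the study. The fibroblasts were obtained by enzymatic digestion of lungs and kept for 48 h with vehicle, a TGF-β1 dose of 0 ng/ml. The other 8 arrays, 4 of each genotype, came from fibroblasts given 5 ng/ml recombinant TGF-β1 for 48 h. All animals were labelled female and 8 weeks old, and no other allele or agent is named in the labels. How the Islr allele was made, the strain of each genotype, whether wild type animals were littermates, and whether replicates came from separate animals are not given in the sources used here. P-values therefore measure the spread between these samples, which may be technical.

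Fibroblasts make and remodel the matrix of the lung. Wnt2, the Tbx and Foxf factors and the Hox genes mark lung mesenchyme and its position along the body, and lipid-storing and adventitial fibroblasts are recognised subtypes. Meflin is known as a marker of mesenchymal stromal cells and of fibroblasts, and is studied for its part in tissue fibrosis, which is driven by TGF-β. The comparison with vehicle asks how the genotypes differ before that stimulus.

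Levels are given as log2 signal, the log2 of the processed spot intensity after each array was shifted to a common 75th percentile, and differences as knockout minus wild type on that scale. The 75th percentile of intensity before the shift lay between 470 and 519 on the knockout arrays and between 486 and 526 on the wild type arrays, and no spot was saturated. Correlations across genes were at least 0.9965 within the knockout group and at least 0.9967 within wild type, and at most 0.9959 between genotypes. The first principal component of the 8 arrays carried 41.27% of the variance and separated the genotypes. The second carried 16.19% and separated the 2 slides, each of which held 2 arrays of each genotype, replicates 1 and 2 on slide 1 and replicates 3 and 4 on slide 2. One set of genes set the wild type arrays of slide 2 apart: the 34 interferon-stimulated genes tested had a median deviation from their mean over the 8 arrays of 0.462 and 0.388 there, against -0.144 and -0.199 on the wild type arrays of slide 1 and -0.056 to -0.227 on the knockout arrays. Counts of the gene lists described below are therefore also given without those arrays where they moved by more than 1.5 times.

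The labels were checked against marker genes. The fibroblast genes Pdgfra, Pdgfrb, Col1a1, Col1a2, Col3a1, Dcn and Vim were well above background on all 8 arrays and did not pass the test between genotypes, with differences from -0.01 to 0.11. Lum, a collagen-binding proteoglycan, and Thy1, a fibroblast surface protein, were lower in knockout, with differences of -0.21 ± 0.06 and -0.39 ± 0.05 (SE; adjusted p = 0.0257 and 0.000196). The Y-linked genes Ddx3y, Eif2s3y, Kdm5d and Uty were well above background on 16 of 16 arrays and Xist, the RNA of the inactive X chromosome, on 0 of 16, which goes against the label female in every group. One of the 3 Kdm5d probes was above background on 0 of 16. Between genotypes Ddx3y did not pass, with a difference of -0.06 ± 0.08 (adjusted p = 0.705).

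Islr itself was the gene with the largest difference. It read 1.68, 1.34, 1.41 and 1.37 on the knockout arrays and 10.88, 10.78, 10.87 and 10.75 on the wild type arrays, with 1 probe. The knockout values were not well above background on any of the 4 arrays, so the fold is a bound. The bound takes the wild type mean against, for each knockout array, the higher of 2 values, the probe's own and that of the dimmest probe still counted as above background. Islr was at least 138-fold lower in knockout (adjusted p = 1.6e-19), at least 134-fold on slide 1 and at least 142-fold on slide 2. Of the 20 tested genes nearest to Islr in gene order, 10 on each side, 2 passed the test, Csk and Neo1, and the 20 differences ran from -0.37 to 0.18.

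Beyond Islr the vehicle difference was broad in number and small in size. Of 15394 genes tested, 2037 passed an adjusted p of 0.05 in limma's moderated test (13.2%), 1089 higher in knockout (7.07%) and 948 lower (6.16%). The median absolute difference of the called genes was 0.26, and 1291 of them differed by less than 1.25-fold and 1804 by less than 1.5-fold. Called genes that differed at least 2-fold numbered 10 higher (0.065% of those tested) and 38 lower (0.247%). On 1820 of the 2037 called genes the 4 arrays of one genotype all lay on one side of the 4 of the other, and 2894 genes had such a separation in all (18.8%). The median difference over all genes was 0.026, and centring arrays on the median probe moved it to 0.065 and the split to 1789 higher and 732 lower, so the balance of small rises against small falls depends on the scaling. That share of higher calls was 53.5% in the main fit and 71% with median centring, both over 15394 genes. It was 38.8% with the authors' deposited value table, which covers only 4186 genes, so the set of genes differs there too.

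**Figure D1:**
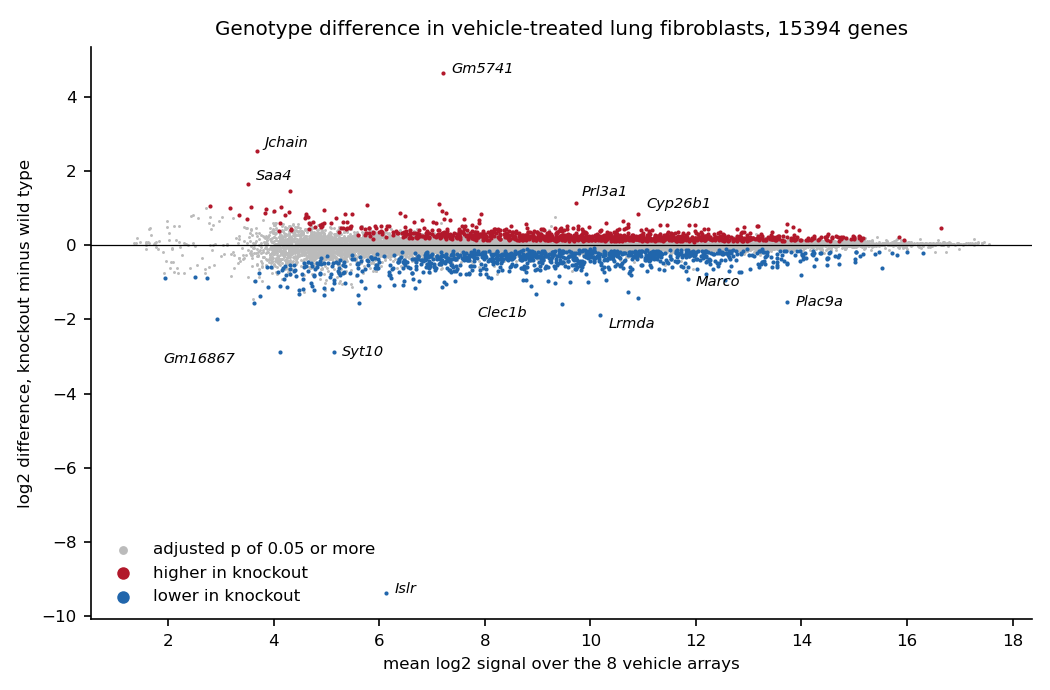
Log2 difference between knockout and wild type (y axis) against the mean log2 signal over the 8 vehicle arrays (x axis) for 15394 genes, 1 point per gene, red where higher in knockout and blue where lower at an adjusted p under 0.05. Islr lies alone at -9.37 (a measured difference, since knockout signals were at background), Gm5741 at 4.64, and most called genes lie within 1 log2 unit of zero.

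Among genes above background on all 8 vehicle arrays, Lrmda had the largest fall. Lrmda, which codes for a leucine-rich melanocyte differentiation protein, read 9.28, 9.29, 9.18 and 9.24 in knockout and 11.22, 11.09, 11.14 and 11.06 in wild type. The difference was -1.88 ± 0.05 (3.69-fold, adjusted p = 3.46e-12), and its other probes gave -2.01 to -1.84. Every knockout array lay below every wild type array by more than 1 log2 unit. Clec1b, the podoplanin receptor of platelets and myeloid cells, read 8.66, 8.74, 8.55 and 8.70 against 10.26, 10.10, 10.33 and 10.33, a difference of -1.59 ± 0.07. Cd2, a lymphocyte adhesion molecule, read 8.32, 8.21, 8.35 and 8.35 against 9.64, 9.46, 9.78 and 9.67, a difference of -1.33 ± 0.07. The groups did not overlap for either gene, but the largest rises and falls were named only from genes without overlap. Hcar2, a receptor for ketone bodies and niacin, fell by 1.12 ± 0.07 on the log2 scale, Ms4a8a by 1.03 ± 0.05, F7, coagulation factor VII, by 1.00 ± 0.06, and the adaptor gene Scimp, which is expressed in antigen-presenting cells, by 0.97 ± 0.05.

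Other large falls had a wider spread between arrays. The carboxylesterases Ces2b and Ces2c, near-identical relatives whose probes may share targets, differed by -1.34 ± 0.20 and -1.16 ± 0.18. Pnoc, the precursor of the neuropeptide nociceptin, differed by -1.22 ± 0.15. Syt10, a synaptotagmin, read 4.21, 3.38, 3.89 and 3.36 in knockout, where 2 arrays were above background, and 6.67, 8.43, 5.60 and 5.69 in wild type. Its difference was -2.89 ± 0.51, and 1 wild type array, at 8.43, lay well above the other 3. Cidec, a lipid droplet protein, Nkx6-2, a homeobox factor, and Wfdc6b differed by -1.20 ± 0.32, -1.31 ± 0.36 and -1.18 ± 0.30, and Agtr2, a receptor for angiotensin II, by -0.88 ± 0.16. Cidec and Nkx6-2 were not past the test in some of the fits that left out 1 array. Syt10 and Nkx6-2 were tested only through the wild type vehicle group, the only group with every array above background. For Ramp1, a subunit of the calcitonin gene-related peptide receptor, the brightest probe gave -0.86 ± 0.08 and the other probe -0.09, so the fall holds for 1 of its probes.

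Several of the largest falls lay beside each other in gene order. On chromosome 14, the consecutive tested genes Plac9a, Tmem254a, Tmem254c and Duxbl2 were all lower in knockout, while the flanking tested genes Anxa11 and Slmap differed by -0.28 (adjusted p = 0.159) and 0.04 (adjusted p = 0.821). Plac9a, which codes for a small secreted protein, read 12.82, 12.97, 13.02 and 13.03 in knockout and 14.54, 14.51, 14.50 and 14.47 in wild type, a difference of -1.54 ± 0.06. Tmem254a, a membrane protein gene, read 10.17, 10.21, 10.16 and 10.24 against 11.53, 11.69, 11.67 and 11.53, a difference of -1.41 ± 0.06. Tmem254c and the homeobox gene Duxbl2 differed by -1.27 ± 0.05 and -1.18 ± 0.14. None of the 4 overlapped between genotypes, which the rule for naming the largest falls required. These genes belong to a repeated stretch. In RefSeq (GRCm38.p6) the 300 bases around the start of Tmem254a match those of Tmem254c at 300 of 300 positions, and those of Tmem254b over 284 aligned bases, and signals of such copies cannot be told apart. The 250 bases before the start, at chr14:25927673-25927922 (- strand), read 5′ to 3′ as follows, printed because the copies share it.
Tmem254a: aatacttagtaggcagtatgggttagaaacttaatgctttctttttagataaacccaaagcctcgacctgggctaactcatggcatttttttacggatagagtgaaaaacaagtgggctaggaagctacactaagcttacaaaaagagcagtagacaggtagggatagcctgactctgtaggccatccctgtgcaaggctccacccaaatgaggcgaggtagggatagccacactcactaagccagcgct

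A second group on the same chromosome held Gm31896, Entpd4 and Gm16867, the first separated from Entpd4 by Gm16677, which differed by 0.15 (adjusted p = 0.255). Entpd4, a nucleotide-hydrolysing enzyme of the Golgi and lysosome, read 11.41, 11.47, 11.46 and 11.53 in knockout and 12.17, 12.14, 12.14 and 12.20 in wild type, a difference of -0.69 ± 0.03 (adjusted p = 1.06e-08). Gm16867 was above background on no knockout array and was at least 3.58-fold lower. Chromosome 14 held 8 of the 38 falls of at least 2-fold and 537 of the 15394 genes tested. The share of its genes past the test was 11.5%, against 13.2% of all genes. The 8 falls include Tmem254a and Tmem254c, whose signals cannot be told apart. On chromosome 12, Srp54a and Srp54c, copies of a gene for the signal recognition particle, differed by -0.62 and -0.63, and Fam177a between them by -0.72. Of 10 tested genes compiled as known to differ in expression or sequence between mouse substrains, 5 were lower in knockout, against 6.16% of all genes. They were Entpd4, Mid1, Mmrn1, Dock2 and Ide, with differences from -0.69 to -0.31. This list, like the others, was chosen with earlier results of these data known, and Mmrn1 is also an endothelial marker. The strain of either genotype is not given in the sources used here, and its part in these differences was not tested.

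Rises of at least 2-fold were fewer than falls of that size. The highest was Gm5741, a predicted gene that the rule for naming passed over, which read 9.42, 9.53, 9.60 and 9.59 in knockout and 4.94, 4.88, 4.73 and 5.05 in wild type, a difference of 4.64 ± 0.07 (24.9-fold, adjusted p = 4.98e-15). Its neighbour on chromosome 8, Fbxw9, a substrate adaptor of ubiquitin ligases, was lower: 8.25, 8.29, 8.32 and 8.40 against 9.35, 9.37, 9.16 and 9.14, a difference of -0.94 ± 0.05. The 2 adjoining genes thus moved in opposite directions, each with no overlap, like most called genes. On the far side of Gm5741, Dhps differed by 0.25 (adjusted p = 0.00605).

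Jchain, the joining chain of polymeric antibodies, was above background on 4 knockout and 0 wild type arrays and was at least 2.47-fold higher. Saa4, an apolipoprotein of the serum amyloid A family, was above background on 4 knockout and 0 wild type arrays and at least 1.63-fold higher, and Dach2, a transcription cofactor, at least 1.52-fold. Jchain and Saa4 were tested only because all 4 knockout vehicle arrays were above background, so these array counts add no support to their rises. Nppb, the natriuretic peptide B gene, was above background on 3 knockout arrays and 0 wild type arrays and at least 1.36-fold higher, while its other probe gave -0.31. For Slc16a12, the difference of 1.00 ± 0.27 rests on signals that were above background on no vehicle array, so no fold is given. Among well measured genes, Prl3a1, of the placental prolactin family, read 10.29, 10.34, 10.28 and 10.28 in knockout and 9.39, 9.25, 8.97 and 9.09 in wild type. Its difference was 1.12 ± 0.08, and the other probe gave 1.098. Arg1, the urea cycle enzyme arginase 1, read 6.04, 6.55, 6.32 and 6.36 against 4.91, 5.28, 5.46 and 5.24, a difference of 1.09 ± 0.11.

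Prl3a1 and Arg1 were higher on every knockout array than on any wild type array, which the rule for naming the largest rises required. Cyp26b1, which breaks down retinoic acid, read 11.25, 11.28, 11.38 and 11.41 in knockout and 10.47, 10.43, 10.60 and 10.41 in wild type, a difference of 0.85 ± 0.05 (1.8-fold, adjusted p = 1.69e-07). Lrat, which esterifies retinol for storage, read 6.98, 6.89, 6.86 and 6.82 against 6.17, 5.99, 5.95 and 6.30, a difference of 0.78 ± 0.10. These 2 were singled out after their values were seen. The protease inhibitor gene A2m, the germ cell gene Tex14 and Efcab7 differed by 0.88 ± 0.20, 0.95 ± 0.15 and 1.104 ± 0.22. Tmem181b-ps, Lrrn1, Vmn1r168 and Fam184b differed by 1.46 ± 0.39, 1.02 ± 0.25, 0.91 ± 0.27 and 0.88 ± 0.24, and these 4 were not past the test in some of the fits that left out 1 array. All 4 were tested only through the knockout vehicle group, the only group with every array above background.

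**Figure D2:**
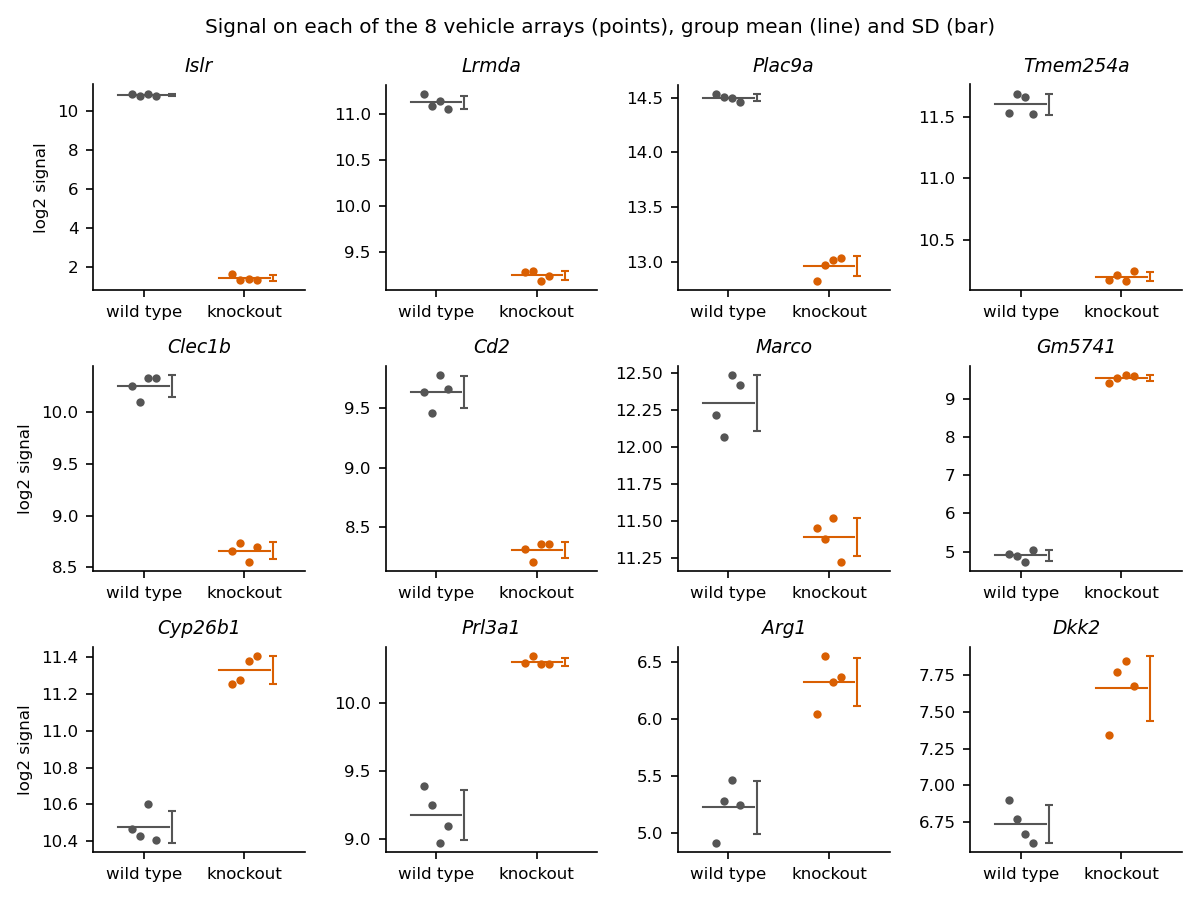
Log2 signal (y axis) of 12 genes on the 4 wild type and 4 knockout vehicle arrays (points), with the group mean as a line and the SD as a bar; axes do not start at zero and differ between genes. The groups do not overlap for any of the 12 genes, which the rule for naming required of all but Marco, Gm5741 and Cyp26b1. Marco, a macrophage receptor, has its highest wild type values on the arrays of slide 2 (12.48 and 12.42).

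Transcription factors of lung mesenchyme and body position made up the list with the highest share of rises. Of 34 members tested, 18 rose, 2 fell and 14 did not pass, with a median difference of 0.172 against 0.026 over all genes. Foxf2, a forkhead factor of mesenchyme, read 10.93, 10.88, 10.92 and 10.88 in knockout and 10.54, 10.35, 10.35 and 10.53 in wild type, a difference of 0.46 ± 0.05 (1.37-fold, adjusted p = 1.16e-05). Hoxa3 read 10.82, 10.93, 10.81 and 10.82 against 10.41, 10.46, 10.42 and 10.39, a difference of 0.43 ± 0.04, and Hoxa5, the Hox gene needed for lung development, 10.10, 9.95, 10.02 and 10.08 against 9.75, 9.67, 9.60 and 9.69, a difference of 0.36 ± 0.04. The rises were small, below 1.5-fold. The genotypes did not overlap for these 3 genes, which was also so for 1820 of the 2037 called genes. Tbx5, Tbx4, Tbx2 and Tbx3, T-box factors of lung and limb mesenchyme, rose by 0.37 ± 0.05, 0.32 ± 0.05, 0.30 ± 0.04 and 0.26 ± 0.05. Hoxa2, Hoxb2, Hoxb4, Hoxb5, Hoxb6, Hoxb7 and Hoxc6 rose by 0.16 to 0.39. Gata6 was among the falls, at -0.16 ± 0.04; Tcf21, the factor of lipid-storing fibroblasts, did not pass. The median was 0.154 within slide 1 and 0.203 within slide 2, and 16 members rose and 1 fell without the wild type arrays of slide 2.

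Inhibitors of the cell cycle and targets of p53 were the list with the next highest median, 0.121 over 28 tested members. Of these, 13 rose, 2 fell and 13 did not pass. Eda2r, a receptor of the tumour necrosis factor family induced by p53, read 8.84, 8.87, 8.77 and 8.81 in knockout and 8.46, 8.50, 8.51 and 8.50 in wild type, a difference of 0.33 ± 0.04 (adjusted p = 4.72e-05). Aen, a nuclease of apoptosis, Trp53inp1, Phlda3 and the antiproliferative gene Btg2 rose by 0.26 ± 0.04, 0.25 ± 0.05, 0.24 ± 0.05 and 0.22 ± 0.05. Cdkn1a, the inhibitor p21, read 11.76, 11.98, 11.99 and 12.01 against 11.72, 11.77, 11.68 and 11.55, so that 1 knockout array lay within the wild type range, and its difference of 0.26 ± 0.06 was not past the test in some fits that left out 1 array. Mdm2, which marks p53 for degradation, Ccng1, Zmat3, Bbc3, Sesn1, Cdkn2c and Cdkn2d rose by 0.17 to 0.22. Cdkn1c, the imprinted inhibitor p57, fell by 0.33 ± 0.05 on the log2 scale and Gadd45g by 0.16 ± 0.04. Trp53 itself did not pass. In the fit without the wild type arrays of slide 2, 11 members rose and 1 fell. Among 39 genes of the cell cycle and DNA replication, 5 rose, including Ccne1 at 0.26 ± 0.06 and Aurka at 0.19 ± 0.05, and 0 fell, against 7.07% and 6.16% of all genes. The rises numbered 2 without knockout replicate 3 or without knockout replicate 4.

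**Figure D3:**
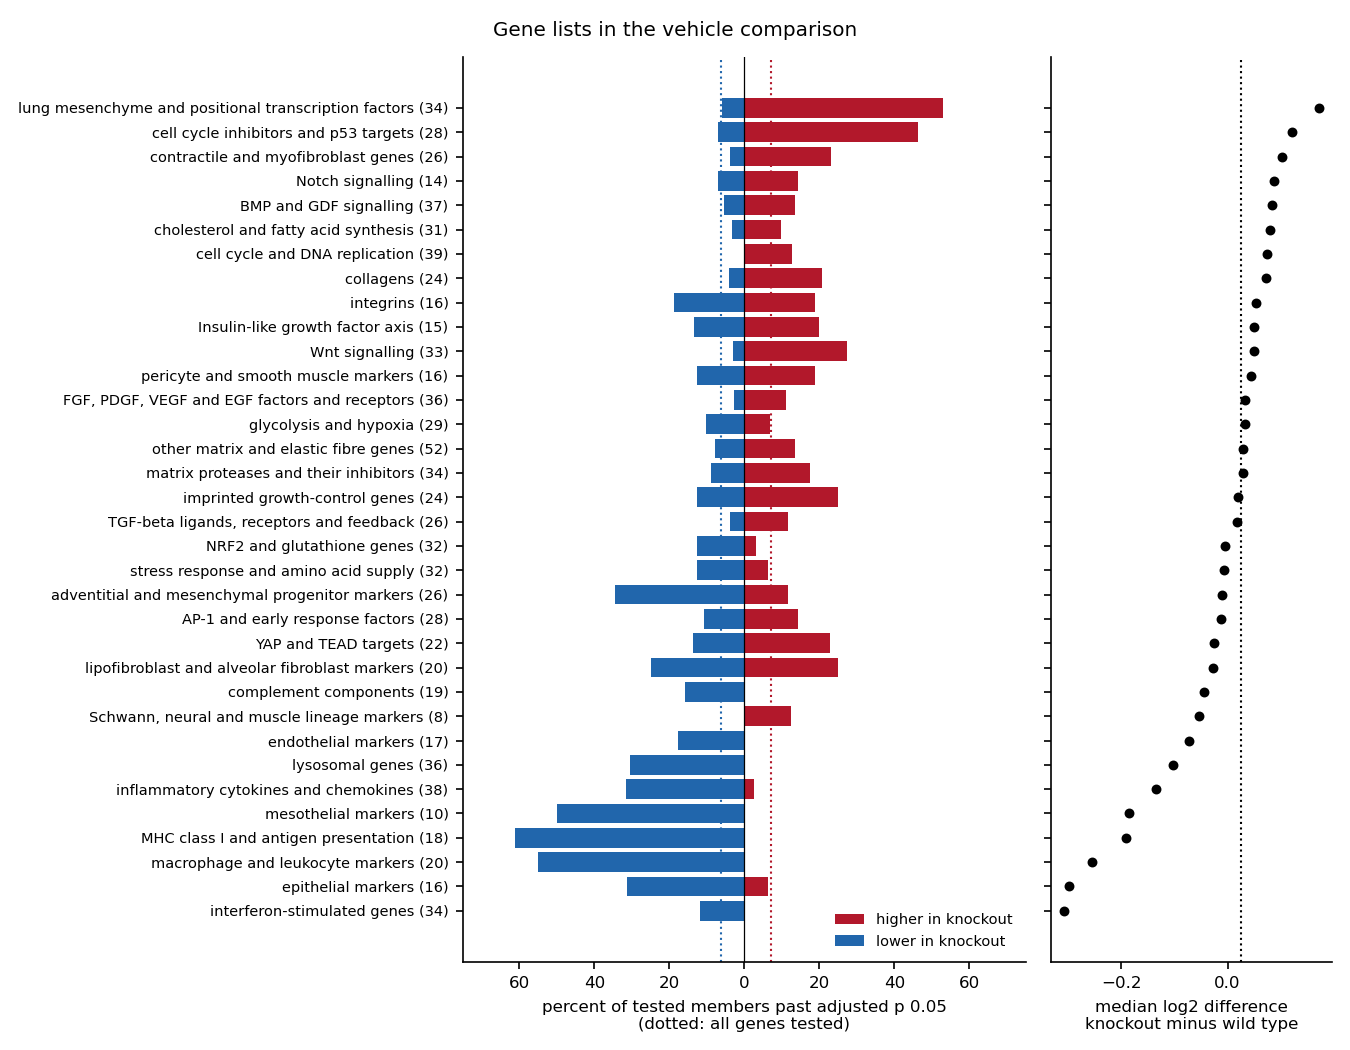
Percent of the tested members of 34 gene lists past an adjusted p of 0.05 (bars; red to the right, higher in knockout; blue to the left, lower) with the number tested after each name, and the median log2 difference of each list (right panel); dotted lines give the values over all 15394 genes. The transcription factor list had 18 of 34 members higher, and the MHC and macrophage lists had 11 of 18 and 11 of 20 lower with 0 higher in each.

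Of 33 Wnt genes tested, 9 rose and 1 fell. Dkk2, a secreted Wnt modulator, read 7.34, 7.77, 7.84 and 7.68 in knockout and 6.90, 6.77, 6.67 and 6.61 in wild type, a difference of 0.92 ± 0.10. The ligands Wnt9a, Wnt2, Wnt4 and Wnt5a rose by 0.48 ± 0.06, 0.45 ± 0.06, 0.37 ± 0.05 and 0.20 ± 0.04, and Frzb and Rspo3, a secreted inhibitor and a secreted enhancer, by 0.41 ± 0.07 and 0.35 ± 0.06. The secreted inhibitor Sfrp1 fell by 0.29 ± 0.05 on the log2 scale. Wnt2, the lung mesenchyme ligand, read 9.06, 9.02, 9.11 and 8.92 against 8.63, 8.48, 8.52 and 8.69. All of the Wnt genes named here kept the 2 genotypes apart on every array, as did most called genes. The rule for naming the largest rises required it of Dkk2. Leaving out the wild type arrays of slide 2 gave 9 Wnt genes that rose and 2 that fell.

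In the BMP and GDF family, 5 of 37 tested genes rose and 2 fell. The receptor Bmpr1b rose by 0.44 ± 0.05 and the ligands Bmp5 and Bmp2 by 0.43 ± 0.06 and 0.36 ± 0.07. Gdf15, a stress-induced ligand, read 12.31, 12.45, 12.54 and 12.49 in knockout and 13.11, 13.07, 13.25 and 13.26 in wild type, a fall of 0.72 ± 0.06 (adjusted p = 4.48e-06). Without the wild type arrays of slide 2, 3 of the family rose and 1 fell. Among 26 genes of TGF-β ligands, receptors and feedback, 3 rose and 1 fell; 7 rose without knockout replicate 1, 0 fell without knockout replicate 3, and 2 rose and 0 fell without the wild type arrays of slide 2. Tgfb1 fell by 0.31 ± 0.08, and Smad7 and Pmepa1, both feedback inhibitors, rose by 0.23 ± 0.05 and 0.19 ± 0.03. Tgfb2 rose by 0.20 ± 0.06; neither Tgfb1 nor Tgfb2 was past the test in every fit that left out 1 array. Of the insulin-like growth factor axis, 3 of 15 rose and 2 fell: Igfbp5, a binding protein, read 13.24, 13.45, 13.47 and 13.51 against 12.88, 12.88, 12.89 and 12.96, a difference of 0.51 ± 0.05, while Igf2 and Igfbp4 fell by 0.43 ± 0.10 and 0.30 ± 0.06. Of this axis 1 rose without knockout replicate 4 or without wild type replicate 1 or 2. Of 36 factors and receptors of the FGF, PDGF, VEGF and EGF families, 4 rose and 1 fell, and the fall, of the hormone Fgf21, was the largest at -0.62 ± 0.07. The rises of these families numbered 2 without knockout replicate 2, 3 or 4 or without wild type replicate 2, and 1 without the wild type arrays of slide 2. Of 14 Notch genes, 2 rose, with Notch3 at 0.19 ± 0.04, and 1 fell. Without those arrays 0 Notch genes fell. The shares past the test of the TGF-β list, 15.4%, and of the FGF, PDGF, VEGF and EGF list, 13.9%, were near the 13.2% of all genes. Those of the BMP and GDF, insulin-like growth factor and Notch lists were 18.9%, 33.3% and 21.4%.

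Of 26 contractile and myofibroblast genes tested, 6 rose, 1 fell and 19 did not pass, with a median of 0.103. Cnn1, calponin of smooth muscle, read 12.02, 12.18, 12.13 and 12.21 in knockout and 11.61, 11.53, 11.65 and 11.60 in wild type, a difference of 0.54 ± 0.05 (1.45-fold, adjusted p = 9.18e-06). Myh11, Palld, Myl9, Mylk and Tpm2, of the actomyosin machinery, rose by 0.17 to 0.27. Itga11, a collagen-binding integrin subunit, read 9.84 to 10.03 in knockout against 10.45, 10.21, 10.61 and 10.48, a fall of 0.48 ± 0.07. Cnn1 and Itga11 thus differed in opposite directions, each without overlap, as did most called genes. Of 16 markers of pericytes and smooth muscle, some of them on the contractile list, 3 were higher and 2 lower (3 and 1 without the wild type arrays of slide 2), and their summed signal was 39040 to 40420 in knockout and 36660 to 38110 in wild type. The part of such cells in the contractile values was not tested. Without the wild type arrays of slide 2, 10 contractile genes rose and 1 fell.

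Of 24 collagens, 5 rose and 1 fell, with Col11a1 at 0.44 ± 0.05 and Col12a1 at 0.38 ± 0.05; the fall was Col6a3 at -0.20 ± 0.06. Of 52 other matrix genes, 7 rose and 4 fell. Vcan, a large proteoglycan, rose by 0.39 ± 0.05, and Loxl2, Lox, Fbln5 and Ccn4, of collagen and elastin crosslinking and assembly and of matricellular signalling, by 0.22 to 0.29. Postn, the matricellular protein periostin, read 10.21, 10.13, 10.02 and 10.07 in knockout and 10.40, 10.51, 10.60 and 10.56 in wild type, a fall of 0.41 ± 0.06, and Thbs2 fell by 0.22 ± 0.04. Of these other matrix genes 2 fell without the wild type arrays of slide 2. Among 34 matrix proteases and inhibitors, 6 rose and 3 fell. Mmp9, gelatinase B, read 7.73, 7.66, 7.64 and 7.72 against 6.97, 7.05, 6.98 and 6.99, a difference of 0.69 ± 0.06, and Adam19 and Adamts8 rose by 0.38 ± 0.03 and 0.57 ± 0.12. Ctsk, the collagen-degrading cathepsin K, read 15.29, 15.19, 15.19 and 15.19 against 15.76, 15.72, 15.90 and 15.95, a fall of 0.62 ± 0.07, and Plaur, the urokinase receptor, fell by 0.44 ± 0.05. Of 16 integrins, Itga2, Itga1 and Itga8 rose by 0.52 ± 0.11, 0.25 ± 0.05 and 0.24 ± 0.05, and Itga4, Itga3 and Itga7 fell by 0.22 to 0.26. The integrin falls numbered 0 without knockout replicate 2, 1 without knockout replicate 3 or 4 or wild type replicate 3, and 1 without the wild type arrays of slide 2. The collagen, other matrix, protease and integrin lists had 25%, 21.2%, 26.5% and 37.5% past the test, against 13.2% of all genes.

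Markers of fibroblast subtypes moved both ways. Of 26 adventitial and progenitor markers, 3 rose and 9 fell, Islr among the falls. Scara5, Ly6a, Thy1, Ly6c1 and Pi16 fell by 0.35 to 0.50, and Nt5e, the ectonucleotidase CD73, rose by 0.44 ± 0.09. Without the wild type arrays of slide 2, 4 of this list were lower and 2 higher. Of 20 markers of lipofibroblasts and alveolar fibroblasts, 5 rose and 5 fell. Fabp4, a fatty acid carrier, read 13.22, 13.14, 13.13 and 13.08 in knockout and 13.67, 13.63, 13.80 and 13.81 in wild type, a fall of 0.58 ± 0.05, and Pparg, the regulator of fat cell genes, 10.81, 10.88, 10.84 and 10.94 against 11.30, 11.35, 11.51 and 11.48, a fall of 0.54 ± 0.06. Lpl, Cebpa and Plin2 fell by 0.22 to 0.30, and these 3 did not pass without the wild type arrays of slide 2, where 3 of the list rose and 2 fell. The rises of this list numbered 2 or 3 when knockout replicate 3 or 4, or wild type replicate 1, 2 or 3, was left out. Fabp4, Pparg, Lpl and Plin2 are also expressed by alveolar macrophages, and those cells' part in the falls was not tested.

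Markers of macrophages and other leukocytes were lower in knockout. Of 20 tested, 11 fell, 0 rose and 9 did not pass, with a median of -0.254. Siglecf, a sialic acid receptor of alveolar macrophages and eosinophils, read 9.42, 9.48, 9.47 and 9.48 in knockout and 10.34, 10.28, 10.60 and 10.59 in wild type, a fall of 0.98 ± 0.06 (1.98-fold, adjusted p = 1.67e-07). Itgax, the integrin CD11c, read 12.17, 11.999, 12.11 and 12.08 against 12.89, 12.95, 13.13 and 13.13, a fall of 0.93 ± 0.06. Marco, a scavenger receptor, fell by 0.90 ± 0.08. For these 3 genes every wild type array exceeded every knockout array, and the wild type arrays of slide 2 read highest. Most called genes likewise had no overlap between genotypes. Lyz2, lysozyme, the signalling adaptors Tyrobp and Fcer1g, the Fc receptor Fcgr3, Cd68 and Ptprc, the leukocyte antigen CD45, fell by 0.35 to 0.56, whereas Adgre1, Csf1r, Cd14, Mrc1 and Aif1 did not pass.

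The summed signal of the 20 leukocyte markers was 155000 to 160900 on the knockout arrays and 188400 to 217400 on the wild type arrays, so macrophage transcripts were present in both. Of 24 listed markers, the B cell genes Cd79a and Ms4a1 and the cytotoxic cell gene Nkg7 were at background on all 8 arrays. In these bulk samples fewer cells of a type and less RNA per cell cannot be told apart. The median was -0.161 within slide 1 and -0.384 within slide 2, and 8 markers fell without the wild type arrays of slide 2. Some markers of other lung cells were also lower. Of 17 endothelial markers, 3 fell and 14 did not pass, with a median of -0.072. The share past the test was 17.6%, against 13.2% of all genes. Vwf fell most, at -0.64 ± 0.05, and the others were Mmrn1, also on the substrain list, and Lyve1. Lyve1 was not past the test in some fits that left out 1 array. The summed endothelial signal was 11900 to 12380 in knockout and 12830 to 13340 in wild type. Of 10 mesothelial markers, 5 fell, by 0.19 to 0.39, with 30840 to 31050 against 34390 to 36090, and 3 fell without knockout replicate 3 or without wild type replicate 2. Of 16 epithelial markers, 5 fell, the keratins Krt7, Krt8, Krt14 and Krt19 and the surfactant gene Sftpb, and Sftpd rose. Krt8 and Krt19 are also on the mesothelial list, so their falls and signals count in both. Sftpb and Sftpd were not past the test in some fits that left out 1 array. Without the wild type arrays of slide 2, 4 epithelial markers fell and 0 rose. Their summed signal was 10090 to 10460 against 11540 to 12070, while Nkx2-1 and Sftpa1 were at background on every vehicle array. The summed levels of these lists did not overlap between genotypes.

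Genes of antigen presentation had the highest share of falls. Of 18 tested members, 11 fell, 0 rose and 7 did not pass, with a median of -0.191. The MHC class II genes differed most. Cd74, the invariant chain, read 7.0, 6.88, 6.87 and 7.04 in knockout and 7.91, 7.79, 8.06 and 7.90 in wild type, a fall of 0.97 ± 0.11 (1.96-fold, adjusted p = 5.63e-05). H2-Eb1 read 7.34, 7.35, 7.19 and 7.15 against 7.97, 7.83, 8.16 and 8.18, a fall of 0.78 ± 0.09, and H2-Ab1 fell by 0.66 ± 0.05. Among the class I genes, H2-D1 read 14.29, 14.18, 14.16 and 14.26 against 14.65, 14.77, 14.83 and 14.78, a fall of 0.53 ± 0.05, and H2-T23 and H2-K1 fell by 0.42 ± 0.04 and 0.23 ± 0.04. B2m, the light chain of class I, fell by 0.19 ± 0.04, and the immunoproteasome subunits Psmb8 and Psmb9 by 0.18 ± 0.06 and 0.19 ± 0.05. No array of one genotype reached the other in Cd74, H2-Eb1 or H2-D1, as in most called genes.

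The class I genes H2-Q2, H2-Q4, H2-Q5, H2-Q7 and H2-Q10, next to H2-D1 in gene order on chromosome 17, differed by -0.52, -0.22, -0.36, -0.59 and -0.64, all past the test. They are close relatives, and probes may share transcripts of several. On the other side, Ddx39b and Atp6v1g2 differed by -0.02 and -0.14 and did not pass. Farther out, Nfkbil1 and Lta differed by 0 and -0.13 and did not pass. Beyond them Tnf differed by -0.57 (adjusted p = 7.55e-07) and Ltb by -0.60 (adjusted p = 0.0508). The MHC list's median was -0.119 within slide 1 and -0.283 within slide 2, and 6 members fell without the wild type arrays of slide 2. The list moved with the leukocyte markers, whose summed signals are given above; MHC class II is a feature of antigen-presenting cells, and their part in these falls was not tested.

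The promoters of 5 genes of this list are shown because the members moved together. Each is the 250 bases before the RefSeq start (GRCm38.p6), read 5′ to 3′, with the letters CCAAT and TGACG in capitals on either strand, so that ATTGG, the reverse complement of CCAAT, also appears. They lie at chr2:122147437-122147686 (+ strand) for B2m, chr17:34000348-34000597 (- strand) for H2-K1, chr17:35262844-35263093 (+ strand) for H2-D1, chr17:36032702-36032951 (- strand) for H2-T23 and chr17:34305617-34305866 (+ strand) for H2-Eb1.
B2m: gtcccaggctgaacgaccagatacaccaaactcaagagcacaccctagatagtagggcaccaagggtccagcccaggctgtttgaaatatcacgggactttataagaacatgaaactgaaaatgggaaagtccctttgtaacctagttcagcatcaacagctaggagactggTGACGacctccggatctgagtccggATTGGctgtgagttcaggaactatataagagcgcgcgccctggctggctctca
H2-K1: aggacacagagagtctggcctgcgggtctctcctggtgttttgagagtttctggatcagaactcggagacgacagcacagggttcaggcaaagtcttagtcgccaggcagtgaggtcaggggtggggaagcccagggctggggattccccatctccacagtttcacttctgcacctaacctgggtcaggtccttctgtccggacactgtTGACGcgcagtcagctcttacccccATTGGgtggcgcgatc
H2-D1: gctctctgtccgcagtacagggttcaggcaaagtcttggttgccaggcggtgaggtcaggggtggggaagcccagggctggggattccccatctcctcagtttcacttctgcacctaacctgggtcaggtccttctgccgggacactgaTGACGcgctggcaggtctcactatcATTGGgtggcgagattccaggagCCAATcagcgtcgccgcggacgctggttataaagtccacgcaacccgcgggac
H2-T23: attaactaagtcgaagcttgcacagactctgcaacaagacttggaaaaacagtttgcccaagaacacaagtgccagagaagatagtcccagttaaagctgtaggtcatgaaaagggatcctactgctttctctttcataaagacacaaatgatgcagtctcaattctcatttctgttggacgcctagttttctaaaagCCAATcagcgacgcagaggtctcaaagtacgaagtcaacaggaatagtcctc
H2-Eb1: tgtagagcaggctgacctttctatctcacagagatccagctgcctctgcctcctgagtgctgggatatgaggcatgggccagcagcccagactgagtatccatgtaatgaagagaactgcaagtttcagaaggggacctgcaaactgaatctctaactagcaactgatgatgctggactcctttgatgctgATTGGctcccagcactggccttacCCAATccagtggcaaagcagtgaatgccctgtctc

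Of the 11 members that fell, 8 had a promoter entry. CCAAT or its complement was in 7 of these 8, against 34.5% of 27018 promoter windows of the same length. TGACG or its complement was in 5, against 17.9%. The motif letters do not overlap each other in the 5 windows shown. A match here describes the letters and not a bound site. The letters were picked with MHC promoters in view, and several of the 8 genes are close relatives. List members that did not fall were not counted. The shares therefore do not tie the letters to the falls.

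**Figure D4:**
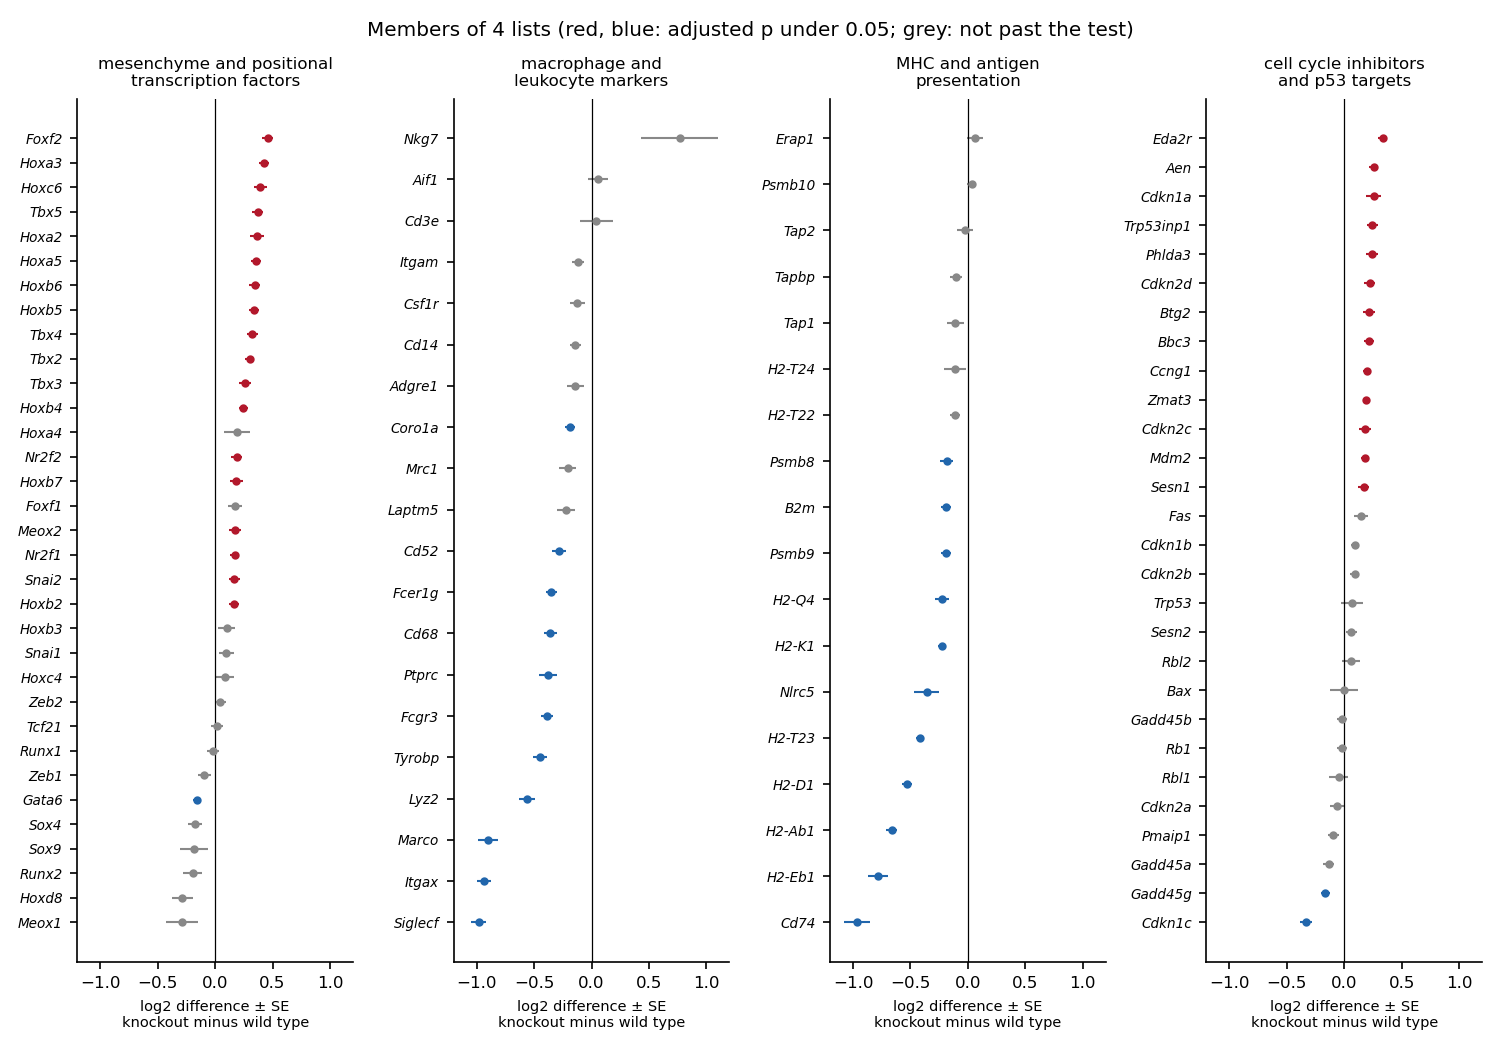
Log2 difference between knockout and wild type with its SE for the tested members of 4 lists, sorted by difference, with 1 member of the transcription factor list not drawn (red and blue, past an adjusted p of 0.05; grey, not past). The Hox and Tbx genes past the test lie at 0.16 to 0.43, and Siglecf, Itgax, Marco and Cd74 lie at or beyond -0.90.

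Of 38 inflammatory cytokines and chemokines, 12 fell, 1 rose and 25 did not pass, with a median of -0.135. Tnf read 7.20, 7.13, 7.18 and 7.19 in knockout and 7.66, 7.75, 7.83 and 7.75 in wild type, a fall of 0.57 ± 0.04 (adjusted p = 7.55e-07). Il1a read 4.90, 4.82, 4.59 and 4.23 against 5.35, 5.32, 5.61 and 5.72, a fall of 0.86 ± 0.17. The chemokines Cxcl13, Ccl5, Cxcl5, Ccl7, Ccl11 and Ccl2 fell by 0.20 to 0.61, and the exception was Saa3, an acute phase protein, which rose by 0.46 ± 0.11. Il1b and Ccl5 overlapped between genotypes. Without wild type replicate 3, 7 of the list were lower, and without both wild type arrays of slide 2, 4 were lower and 0 higher. The 36 lysosomal genes had 11 falls and 0 rises, among them Atp6v0d2, a proton pump subunit, at -0.56 ± 0.05, Psap, the saposin precursor, at -0.51 ± 0.07 and Ctsz at -0.26 ± 0.03, and 4 of them were lower without those arrays. The lysosomal falls numbered 6 without knockout replicate 2 or without wild type replicate 3, and 7 without knockout replicate 3. Both lists moved with the leukocyte markers, whose part was not tested.

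The interferon-stimulated genes had the lowest median of the 34 lists in the plot of list shares, -0.308, yet only 4 of 34 passed (11.8%, near the 13.2% of all genes). The falls included Oas1a, Ifi204 and Trim30a. Oas1a, a sensor of double-stranded RNA, read 10.55, 10.38, 10.47 and 10.47 in knockout and 10.87, 10.75, 11.27 and 11.31 in wild type, a fall of 0.58 ± 0.11. The difference rested on slide 2: the list's median was 0.06 within slide 1 and -0.601 within slide 2, where 24 members were lower. The falls numbered 9 without wild type replicate 2, and 2 without knockout replicate 2, 3 or 4 or without wild type replicate 3 or 4. Without the wild type arrays of slide 2 the median was 0.047 and 1 member was lower. Of 19 complement components, C3, C4b and Cfi fell by 0.21 to 0.25, a share of 15.8%, near the 13.2% of all genes. Without those arrays 0 complement components were past the test.

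Early response and metabolic genes differed in smaller numbers. Of 28 AP-1 and early response genes, 4 rose and 3 fell. Fos read 12.04, 12.30, 12.35 and 12.31 in knockout and 11.65, 11.50, 11.78 and 11.88 in wild type, a difference of 0.55 ± 0.08, and Dusp1 and Klf2 rose by 0.43 ± 0.06 and 0.42 ± 0.06, while Egr2 and Atf3 fell by 0.40 ± 0.08 and 0.29 ± 0.06. Neither Egr2 nor Atf3 passed without the wild type arrays of slide 2, where 3 of the list rose and 0 fell. Of 22 YAP and TEAD targets, 5 rose and 3 fell, with Ankrd1 at -0.44 ± 0.06 and Crim1 at 0.26 ± 0.05, and 3 rose without knockout replicate 2, 3 or 4, as did 3 without the wild type arrays of slide 2. Of 24 imprinted genes, 6 rose and 3 fell; Grb10, Peg3 and Slc38a4 rose by 0.36 to 0.48. Without the wild type arrays of slide 2, 2 imprinted genes rose and 3 fell, and Grb10 and Peg3 did not pass. In the stress response list 2 of 32 rose and 4 fell, with Chac1 and Slc7a11, of glutathione breakdown and cystine uptake, at -0.46 ± 0.07 and -0.38 ± 0.07. Of 32 NRF2 and glutathione genes, 1 rose and 4 fell, and of 29 glycolysis and hypoxia genes 2 rose and 3 fell, with Car9, carbonic anhydrase 9, at -0.57 ± 0.06. Of 31 genes of cholesterol and fatty acid synthesis, 3 rose and 1 fell, and of 8 Schwann, neural and muscle markers 1 rose. The shares past the test of the AP-1, YAP and imprinted lists were 25%, 36.4% and 37.5%. Those of the stress, NRF2, glycolysis, cholesterol and Schwann, neural and muscle lists, 12.5% to 18.8%, were near the 13.2% of all genes. Without knockout replicate 1, however, 7 cholesterol genes rose, and without the wild type arrays of slide 2, 5 stress response and 4 glycolysis and hypoxia genes rose.

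The same genotype difference was measured on the 8 arrays with TGF-β1, which share no array with the vehicle comparison. There 10800 genes passed (70.2%), 39.6% of genes higher in knockout and 30.5% lower, 510 of them at least 2-fold higher and 1080 at least 2-fold lower. Of the 2037 genes called with vehicle, 1111 were called in the same direction with TGF-β1, 549 in the opposite direction and 377 not at all. For 1452 of the 2037 the difference between the 2 genotype differences passed its own test, which 58.2% of all genes did. Of the 48 genes that differed at least 2-fold with vehicle, 28 kept their direction and call, 19 were not called, and 1 was called in the opposite direction, Nkx6-2, which was above background on no array with TGF-β1.

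Lrmda kept its size, at -2.03 ± 0.05 with TGF-β1, and so did Prl3a1, at 0.96 ± 0.08, and for neither did the change between treatments pass (adjusted p = 0.071 and 0.24). Clec1b, Cd2, Tmem254a and Plac9a were still lower with TGF-β1, at -0.45, -0.47, -0.44 and -0.89, and each change between treatments passed. Gm5741 differed by 0.56 ± 0.07 with TGF-β1 against 4.64 with vehicle. Jchain and Saa4 were above background on no array with TGF-β1, so no difference is given there. The macrophage genes Siglecf, Itgax and Marco differed by 0.00, -0.20 and 0.18. Of the 20 leukocyte markers, however, 12 were lower with TGF-β1 and 3 higher, with a median of -0.216. Their summed signal there was 85100 to 93370 in knockout and 110900 to 118700 in wild type. H2-Ab1, lower with vehicle, was higher by 1.34 ± 0.05. Of the 18 antigen presentation genes, 12 were lower and 2 higher, with a median of -0.434. Of all genes, 30.5% were lower and 39.6% higher. Tnf stayed lower, at -0.84 ± 0.04. Cyp26b1 and Lrat, higher with vehicle, were lower, at -0.57 ± 0.05 and -0.96 ± 0.10.

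The T-box genes Tbx4 and Tbx5 also changed sides, at -0.82 ± 0.05 and -0.25 ± 0.05 under TGF-β1. Foxf2, Hoxa3 and Hoxa5 stayed higher, at 0.67 ± 0.05, 0.65 ± 0.04 and 0.83 ± 0.04. Of the 34 transcription factors of that list, 20 were higher and 9 lower with TGF-β1, with a median of 0.191. Among genes past the test in both treatments, the most positive changes between treatments were those of Ankrd1 (-0.44 with vehicle, 2.61 with TGF-β1), Il1b (-0.76 and 2.27), Islr (-9.37 and -6.58), Has2 (0.16 and 2.96) and Fgf21 (-0.62 and 2.10). For Islr, the knockout signal was at background in both treatments, so that it was at least 19.7-fold lower with TGF-β1, and the wild type mean was 10.82 with vehicle and 8.34 with TGF-β1. The most negative were those of Igfbp5 (0.51 and -6.49), Hp, Angptl7, Calca and Scrg1 (0.28 and -4.40). Calca and Scrg1 were above background on no knockout array with TGF-β1 and were at least 10.4-fold and 4.71-fold lower there, so their values and their places in this order rest on background signals.

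**Figure D5:**
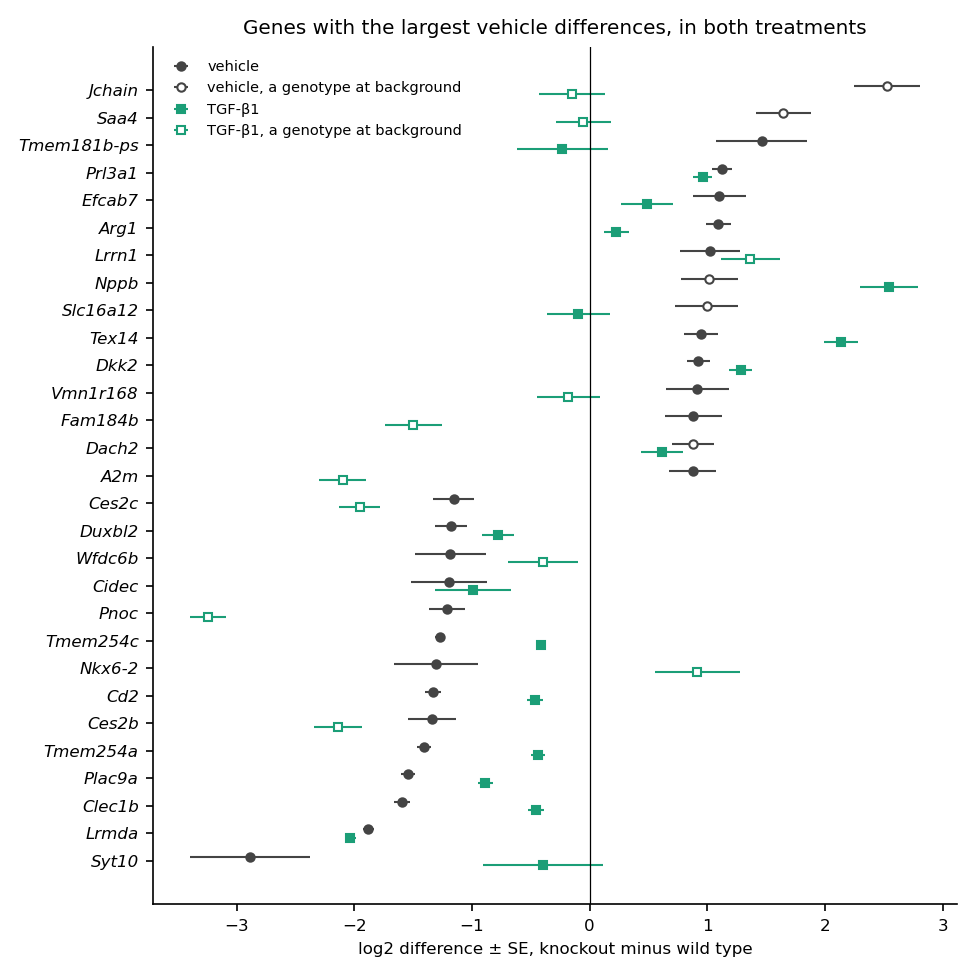
Log2 difference between knockout and wild type with its SE (x axis) for the 15 genes named for the largest rises and 14 of the 15 for the largest falls (Islr is left out for scale), with vehicle (circles) and with TGF-β1 (squares). Symbols are open where at least 1 genotype had 0 of 4 arrays above background, so that the position is a measured difference and no fold. Lrmda and Prl3a1 lie close together in both treatments, whereas Clec1b lies at -1.59 with vehicle and at -0.45 with TGF-β1.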

How the data were processed

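Total RNA of 16 samples, 4 for each of 4 groups, was labelled with Cy3 and read on Agilent 1-colour arrays. Per the file headers, each deposited file gives the processed intensity of every spot after background subtraction by Agilent Feature Extraction 11.0.1.1. A second file from the authors, in log2 units, covers 9933 probes and served as an alternative; how those probes were selected and scaled is not given in the sources used here. Its columns have medians of 6.38 to 6.61 and correlate with the log2 intensity of the same array at 0.999 or more, so it is not centred per probe. The log2 of the intensity was taken, repeated spots were averaged, and arrays were shifted to a common 75th percentile. Probes had to exceed background clearly on every array of 1 group or more. Names came from matching accessions to RefSeq (GRCm38.p6), which gave 32980 of 56605 probes 1 of 22906 gene names, and the brightest kept probe stood for each of 15394 genes; the array was designed on another build, so no coordinates of probes are given. No probe's level was set against another's.

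The test was limma 3.58.1 (R 4.3.3; packages Biostrings 2.70.1 and, at version 1.17.8, data.table), with 1 coefficient per group over 16 arrays, 2-sided moderated tests, and Benjamini-Hochberg adjustment over all genes. Values after ± are standard errors. The number of arrays limits the precision. Same-numbered samples did not deviate together (correlations of their deviations 0.05, 0.133, 0.063 and -0.034), so the replicate number was not used in the main fit. Members and gene lists were chosen with earlier results of these data known. Genes named were Islr, the 15 largest rises and 15 largest falls among called genes without overlap, passing over accession-like, Gm and Rik symbols, 5 genes at each end of the change between treatments, and members of the lists, up to 5 of each by size and others as values. A few further genes, among them neighbours in gene order, were chosen after their values were seen. The test was checked on simulated data. Alternatives covered normalization, background correction, probe filter and choice, blocks, slides and left-out arrays. Some results are not reported here.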

Additional observations from a re-analysis of the deposited data

Results flagged for a closer look

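Of 532 sets of 4 arrays, from 266 named genes in 2 genotypes, 26 held an array far from the other 3 by Dixon's test, 16 in knockout and 10 in wild type; chance alone marks about 1 in 20 such sets. Knockout replicate 1 stood apart most often. It was low for Jchain (4.43, the next array at 5.05), Fos (12.04), Cdkn1a (11.76), Siglecf (9.42) and Saa3 (16.57), and high for Car9 (9.44), Lpl (13.30), Lyz2 (14.06), Ctsk (15.29), Ptprc (11.08) and H2-Q7 (13.33). Knockout replicate 2 was high for Hoxa3 (10.93) and Mcemp1 (9.08), replicate 3 high for C4b (14.18) and low for Hoxa2 (7.77), and replicate 4 high for Adam19 (12.21). In wild type, replicate 2 was low for Bmp2 (7.29) and high for Igfbp4 (11.60), Itga3 (9.36) and Mmp9 (7.05), and replicate 1 high for Kcnj8 (10.50). Wild type replicate 4 was low for Fgf21 (6.72), Ccl11 (8.46), Fbln5 (13.32) and Hoxb6 (9.98) and high for Lilra5 (8.17). Each value is a log2 signal.

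The genotype difference changed most between treatments, by limma's test of that change, for Ankrd1 (3.05), Il1b (3.03), Islr (2.79), Has2 (2.79) and Fgf21 (2.72) upward, and for Igfbp5 (-7.00), Hp (-6.08), Angptl7 (-5.19), Calca (-4.86) and Scrg1 (-4.68) downward, as TGF-β1 minus vehicle on the log2 scale. For Islr, Calca and Scrg1 these are measured differences, since the knockout arrays with TGF-β1 were at background. For Hp, Angptl7 and Calca, the vehicle differences were 0.39, -0.42 and -0.66.

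Among 11179 probes kept without a gene name, 457 passed the test with vehicle (4.09%), 6 of them at least 4-fold.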

How the results depend on the processing

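The count of 2037 genes past the test with vehicle was 196 within slide 1 and 1049 within slide 2, each with 2 arrays a genotype, and 1150 of 4186 genes in the authors' deposited value table. With that table the counts were 3617 under TGF-β1 and 3351 for the change between treatments. Leaving out 1 array gave 1485 to 2054 calls, and leaving out both wild type arrays of slide 2, a choice made after seeing the data, gave 1494. The fit with the replicate block gave 2301 calls, 11061 under TGF-β1 and 9308 for the change between treatments, and slide as a block 2392. The fit on the 8 vehicle arrays alone gave 1592. Genes at least 2-fold higher and lower numbered 10 and 38, but 2 and 9 with normexp background correction, and 4 and 20 among genes above background on all 8 arrays. Of 266 named genes, none changed the sign of its difference under an alternative that tested it (189 were tested in the authors' table and 247 among genes above background on all 8 arrays). They were named from the main fit of the same arrays, which favours a kept sign. Calls were lost for 206 of them within slide 1, 103 within slide 2 and 77 without the wild type arrays of slide 2. In all 8 fits that left out 1 array, 204 passed. The other 62 did not pass in at least 1; they include Tmem181b-ps, Lrrn1, Slc16a12, Vmn1r168, Fam184b, Nkx6-2, Cidec, Il1b, Has2, Calca, Tgfb1, Tgfb2, Ly6a, Cdkn1a, Aurka, C3, C4b, Sftpb, Sftpd, Grb10, Ccl5, Ccl11, Cxcl5, Itga3, Itga4, Itga7, Trim30a, Loxl2, Lum, Psmb8, H2-Q4, Col6a3, Cdkn2c, Sesn1, Gadd45g, Hoxb2, Hoxb7, Cebpa, Pi16, Dock2, Csk and Neo1. The cause of these changes was not tested, beyond the smaller number of arrays or genes that an alternative leaves. Where a genotype had no array above background, the size of a difference is limited to a bound.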
